A study of Homo sapiens with 10 samples.

Results

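Newly made RNA was compared between 22RV1 cells treated for 4 h with THZ531 and Endovion together and untreated 22RV1 cells. Of the 10 libraries of the series, 4 enter the comparison, those labelled as treated with both compounds (2 replicates, called the combination below) and those labelled control (2 replicates, treatment given as none). Endovion, also known as SCO-101, was used at 50 μM. The dose of THZ531 is 100 nM in the methods but 150 nM in the design text. The other libraries were of cells given THZ531 alone (2), Endovion alone (2) or SRPIN340, another SRPK1 inhibitor, alone at 20 μM (2). They were used to estimate the spread and to set values beside the combination. Those given THZ531 alone or Endovion alone also entered further tests, against the combination and as an interaction. All cells, control included, received 4-thiouridine for the last 10 min, a uridine analog that is built into RNA while it is made and that, after alkylation, is read as C where the genome has T. Reads with such T>C conversions therefore count recently made transcripts (nascent RNA), all reads count the transcripts present (total RNA), and their ratio is the T>C share. 22RV1 is a single established line of castration-resistant prostate cancer, nothing states that replicates came from separate cultures, and the p-values measure only the spread between these libraries.

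THZ531 is a covalent inhibitor of CDK12 and CDK13, kinases that phosphorylate the tail of RNA polymerase II and keep it elongating through long genes, and loss of CDK12 activity is known for lowering expression of DNA repair genes. Endovion was developed as a blocker of a volume-regulated anion channel and is used in this study as an inhibitor of SRPK1, the kinase that phosphorylates the SR splicing factors. The study combined the compounds to ask how cells that lose CDK12 activity respond when SRPK1 is inhibited too. A label of 10 min reads mainly transcription of the last minutes before harvest, at the 3′ end of the mRNA where these libraries start, so that a gene must have been transcribed to its end to be counted.

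The 4 libraries had 19315403 to 27236001 reads on genes, of which 1011598 to 1551146 carried a T>C conversion. All 12 markers of prostate luminal cells were at 1 or more CPM in each of the 4, with a summed level of 2214 to 2246 CPM in control and 1651 to 1759 in the combination. All 3 basal markers were below 1 read CPM, 1 of 3 neuroendocrine, 1 of 6 fibroblast and 1 of 4 leukocyte markers reached it, and the 3 endothelial markers had no read. In bulk samples, fewer cells of a type and less RNA per cell cannot be told apart, and counts scaled within a library do not show a change in the total amount of RNA made.

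The genes that changed most clearly included targets of the aryl hydrocarbon receptor, a ligand-activated transcription factor that binds DNA elements with the core GCGTG and switches on enzymes of xenobiotic metabolism. The windows of 250 bases before to 50 bases after the start site of 2 of them are shown because both genes rose in nascent RNA and both windows hold that core (RefSeq, build GRCh38.p14, capitals mark GCGTG or its reverse complement CACGC). The CYP1A1 window lies at chr15:74725479-74725778 on the minus strand, and the TIPARP window at chr3:156674340-156674639 on the plus strand.
CYP1A1: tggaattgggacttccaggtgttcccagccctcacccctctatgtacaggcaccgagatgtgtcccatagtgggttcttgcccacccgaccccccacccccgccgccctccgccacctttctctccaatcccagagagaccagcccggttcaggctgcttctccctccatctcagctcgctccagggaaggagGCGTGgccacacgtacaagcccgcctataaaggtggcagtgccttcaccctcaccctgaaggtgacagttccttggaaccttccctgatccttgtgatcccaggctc
TIPARP: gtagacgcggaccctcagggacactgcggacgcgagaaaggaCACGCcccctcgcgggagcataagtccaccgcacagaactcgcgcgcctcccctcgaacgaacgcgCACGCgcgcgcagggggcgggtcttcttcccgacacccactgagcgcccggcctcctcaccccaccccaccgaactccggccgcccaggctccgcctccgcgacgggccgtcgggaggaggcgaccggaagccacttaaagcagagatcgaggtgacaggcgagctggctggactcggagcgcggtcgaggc
The core stands 57 bases before the start site of CYP1A1, and 208 and 142 bases before that of TIPARP. A match of these letters is a description and not a bound site, and 53.2% of the windows of all tested genes hold the same core.

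Of 9946 genes with enough T>C reads to be tested, 459 rose in the combination against control (4.61%) and 349 fell (3.51%) at an adjusted p under 0.05 in the quasi-likelihood test of edgeR. Of these, 332 rose (3.34%) and 220 fell (2.21%) by 1 or more on the log2 scale. The threshold of the methods, an unadjusted p under 0.05 with that log2 limit, gave 616 up (6.19%) and 511 down (5.14%). The median log2 fold change over all tested genes was -0.01. The 459 genes that rose had a median log2 fold change of 1.32 in the combination, 1.08 with THZ531 alone and 0.93 with Endovion alone, all against the same control libraries. The 349 genes that fell had medians of -1.25, -0.93 and -0.44 in that order. The combination libraries chose both sets of genes, which favours a larger median in the combination than with a single compound. Leaving out combination replicate 1 lowered the calls to 185 up and 134 down, and leaving out control replicate 2 to 198 up and 147 down. Without combination replicate 2 the calls down fell to 219. Summing all intervals of a gene without removing overlaps gave 169 up and 103 down.

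The level of the called genes in each library shows how the groups lay. Against each gene's mean over the 10 libraries, the 459 genes that rose had a median log2 level of -0.59 and -0.92 in the control libraries and of 0.52 and 0.47 in the combination. In the other treated libraries the median was 0.12 and 0.42 for THZ531, 0.16 and 0.11 for Endovion, and -0.11 and 0.05 for SRPIN340. The control libraries were thus the lowest of all groups, also below the group given a compound that is not part of the combination. For the 349 genes that fell, the control medians were 0.49 and 0.64 and the combination medians -0.63 and -0.53, with -0.20 and -0.39 for THZ531, 0.13 and 0.15 for Endovion, and 0.26 and 0.22 for SRPIN340. Since the control and combination libraries chose these genes, their order is a description, and a part of the control libraries' own state in it was not tested.

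Targets of the aryl hydrocarbon receptor had the highest share of calls among the lists, with 3 of 5 tested members up, none down and a median log2 fold change of 1.81. Only these 5 of the 12 members had enough T>C reads to be tested. A gene low in control can pass that filter through treated libraries, which favours members that rose. CYP1A1, a monooxygenase that oxidizes aromatic hydrocarbons, stood at 5.11 and 6.37 T>C CPM (T>C reads scaled to the library's T>C reads on genes, with TMM factors) in control and at 66.4 and 114 in the combination. Its level was 178 and 198 with Endovion alone and 12.3 and 4.04 with THZ531 alone. The combination thus lay far above control and THZ531 and below Endovion, with a log2 fold change against control of 3.96 ± 0.42 (SE, adjusted p = 4.4e-10). CYP1B1, a related monooxygenase, moved from 45.4 and 35.8 to 120.2 and 167 (log2 fold change 1.81 ± 0.28, adjusted p = 6.7e-06). TIPARP, an ADP-ribosyltransferase that restrains the receptor, moved from 0.639 and 5.57 to 42.9 and 27.3 (log2 fold change 3.55 ± 0.68, adjusted p = 0.00019). These 3 genes rose in total RNA as well, by log2 fold changes of 5.08, 1.84 and 3.46. Of 8 members tested in total RNA 4 rose (50.0%) and 1 fell (12.5%), against 16.6% and 12.4% of all tested genes. The member that fell, named after its values were seen, was AHRR, the repressor of the receptor, whose intervals overlap another gene's. AHRR had 115 and 142 reads in control and 36 and 34 in the combination (log2 fold change -1.58, adjusted p = 0.0025), with 27 and 12 with THZ531 alone and 109 and 96 with Endovion alone. SLC7A5, an amino acid transporter also on the list, had a nascent log2 fold change of -0.16 (adjusted p = 0.54). CYP1A1 had 3220 and 2968 reads in the combination against 141 and 87 in control.

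**Figure D1:**
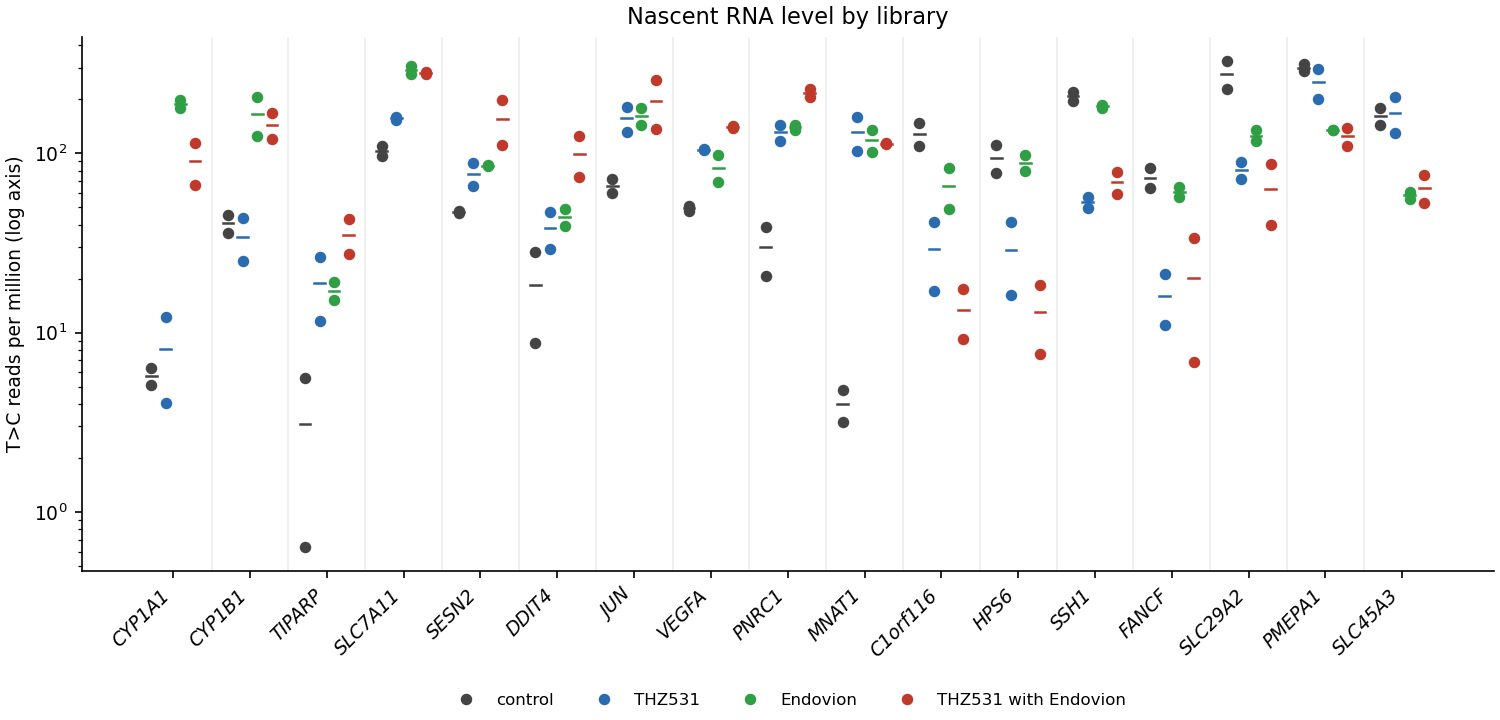
Level of nascent RNA in T>C CPM (log axis) of genes named in the text in the control, THZ531, Endovion and combination libraries, with a point for each library and a bar at the mean of each group. CYP1A1 is at 66.4 and 114 in the combination against 5.11 and 6.37 in control, and C1orf116 at 9.25 and 17.6 against 109 and 147.

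The integrated stress response comprises genes, many of amino acid supply, that ATF4 switches on when translation initiation is slowed. Of 31 tested members 7 rose (22.6%) and none fell, with a median log2 fold change of 0.37, and 17 of 32 rose (53.1%) in total RNA. Over all tested genes 4.61% rose and 3.51% fell in nascent RNA, and 16.6% rose and 12.4% fell in total RNA. The percents of the lists below stand beside these shares. SLC7A11, the cystine transporter, was at 97.1 and 109.9 T>C CPM in control and at 277 and 284 in the combination (log2 fold change 1.44 ± 0.19, adjusted p = 1.6e-07). SESN2, a sestrin that holds back mTORC1, moved from 47.9 and 46.2 to 198 and 111 (log2 fold change 1.72, adjusted p = 6.7e-06). DDIT4, another inhibitor of mTORC1, moved from 28.1 and 8.76 to 124 and 74.2 (log2 fold change 2.39, adjusted p = 6.9e-06). In each of these 3 genes both combination libraries lay above both control libraries, as for 2392 of all 9946 tested genes. The naming rule required this of SLC7A11. THZ531 alone and Endovion alone lay between for SESN2 and DDIT4. MTHFD2, a mitochondrial folate enzyme, rose less (log2 fold change 0.63, adjusted p = 0.0044). The call on MTHFD2 was lost without combination replicate 1 (adjusted p = 0.123). Of the aminoacyl-tRNA synthetases, 2 of 18 rose (11.1%) and none fell. TARS1 rose by 1.32 (adjusted p = 0.00029) and IARS1 by 1.60 on the log2 scale (adjusted p = 0.0027). FARSA and HARS1 had log2 fold changes of -0.69 and -2.03 (adjusted p = 0.12 and 0.25). The call on IARS1 was lost without combination replicate 1 (adjusted p = 0.119) or control replicate 2 (0.083).

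Of 21 tested targets of NRF2, the regulator of antioxidant genes, 5 rose (23.8%) and 1 fell (4.76%), with a median log2 fold change of 0.09. Besides SLC7A11, those that rose included TXNRD1, thioredoxin reductase, by 0.90, GSR, glutathione reductase, by 0.87, and GCLM, a subunit of the enzyme that starts glutathione synthesis, by 1.44 on the log2 scale (adjusted p = 0.00061, 0.00065 and 0.0022). GCLM stood at 26.8 and 31.9 T>C CPM in control, at 84.1 and 75.2 in the combination, and at 33.5 to 52.3 in the 4 libraries of the single compounds. The calls on TXNRD1 and GSR were lost without control replicate 2 (adjusted p = 0.0624 and 0.0935). In the unfolded protein response, 4 of 38 members rose (10.5%) and none fell (median 0.18), and 15 rose (38.5%) and 2 fell (5.13%) of 39 in total RNA. SEC61B, a subunit of the translocon of the endoplasmic reticulum, moved from 175 and 129.8 to 316 and 408 (log2 fold change 1.24, adjusted p = 2.1e-06). HSP90B1, HERPUD1 and DNAJB9 rose by 0.58, 0.81 and 1.54 on the log2 scale (adjusted p = 0.013, 0.035 and 0.046). All 3 of those calls were lost without combination replicate 1 (adjusted p = 0.154, 0.373 and 0.340) or control replicate 2 (0.353, 0.236 and 0.329), and that on DNAJB9 also without combination replicate 2 (0.0625).

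Of the cytosolic heat shock chaperones, none of 21 tested members rose or fell in nascent RNA in edgeR or in DESeq2, with 1 higher and none lower at an unadjusted p under 0.05 in edgeR, and 5 of 21 rose in total RNA. Over all genes 4.61% rose and 3.51% fell in nascent RNA, so that a list of this size with no call lies near that share. The 4 members with the smallest p were HSP90AA1, HSPA8, DNAJA1 and HSPA4, with log2 fold changes of 0.41, 0.99, 0.35 and -0.40 and adjusted p of 0.095, 0.24, 0.26 and 0.34. HSP90AA1 was at 443 and 603 T>C CPM in control and at 682 and 704 in the combination.

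Of 28 targets of p53, 6 rose (21.4%) and none fell (median log2 fold change 0.25). They included SESN2, TNFRSF10B, a death receptor for TRAIL, CCNG1, a cyclin, and BBC3, which encodes the proapoptotic protein PUMA. TNFRSF10B moved from 17.9 and 21.5 T>C CPM to 71.5 and 55.6 (log2 fold change 1.70, adjusted p = 0.0011), while both single compounds gave 33.3 to 36.8. CCNG1 and BBC3 rose by 1.40 and 0.88 on the log2 scale (adjusted p = 0.0061 and 0.0065). The call on CCNG1 was lost without combination replicate 2 (adjusted p = 0.0611) or control replicate 2 (0.0742), and that on BBC3 without combination replicate 1 (0.258) or control replicate 1 (0.175). In the BCL2 family, 3 of 13 tested members rose (23.1%) and none fell. They were BBC3, BCL2L11, which encodes the proapoptotic protein BIM, by 1.92 (adjusted p = 0.0065), and MCL1, a short-lived survival factor, by 0.80 (adjusted p = 0.01). BCL2L1, which encodes the survival factor BCL-XL, had a log2 fold change of -1.09 (adjusted p = 0.13). The calls on BCL2L11 and MCL1 were lost without combination replicate 1 (adjusted p = 0.102 and 0.195) or control replicate 2 (0.0628 and 0.359). Here members that promote death and a member that opposes it rose together.

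Immediate early genes and NF-κB targets respond within minutes to hours to signals and stress. They had 10 of 35 members up (28.6%) and 1 down (2.86%), with a median log2 fold change of 0.47. In total RNA 20 were up (45.5%) and 2 down (4.55%) of 44. PNRC1, a nuclear receptor coactivator, had the second smallest p of all genes that rose by the naming rule. It stood at 39.0 and 20.7 T>C CPM in control and at 229 and 207 in the combination (log2 fold change 2.84 ± 0.25, adjusted p = 1.9e-12). JUN, an AP-1 factor, moved from 71.5 and 59.7 to 256 and 137 (log2 fold change 1.58, adjusted p = 5.3e-06). IER5 rose by 0.79 (adjusted p = 0.0065). The member that fell was BTG1, an antiproliferative gene, from 4668 and 5374 in control to 2720.0 and 3459 (log2 fold change -0.70, adjusted p = 0.00024). BTG1 was at 2702 and 2794 with Endovion alone and at 5043 and 5021 with THZ531 alone, so that the combination lay with Endovion. The call on BTG1 was lost without combination replicate 1 (adjusted p = 0.0519), and that on IER5 without combination replicate 1 (0.183) or control replicate 1 (0.117). Of 36 short-lived regulators, a list that shares TIPARP, JUN and BTG1 with those above, 11 rose (30.6%) and 1 fell (2.78%, median 0.38).

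Genes of hypoxia and glycolysis had 6 of 29 members up (20.7%) and none down (median log2 fold change 0.17). KDM3A, a histone demethylase, moved from 4.47 and 2.39 T>C CPM to 39.5 and 28.3 (log2 fold change 3.24, adjusted p = 3.7e-05). VEGFA, the angiogenic growth factor whose splicing SRPK1 is known to influence, moved from 47.9 and 51.0 to 139 and 142 (log2 fold change 1.503 ± 0.26, adjusted p = 5.2e-05). VEGFA was at 104 and 105 with THZ531 and at 97.5 and 68.7 with Endovion, both below the combination. ADM, a vasodilator peptide, rose by 1.88 (adjusted p = 0.0084), and was at 12.2 and 3.82 with Endovion alone against 43.7 and 42.0 in the combination. The call on ADM was lost without combination replicate 1 (adjusted p = 0.0815) or control replicate 2 (0.0975).

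**Figure D2:**
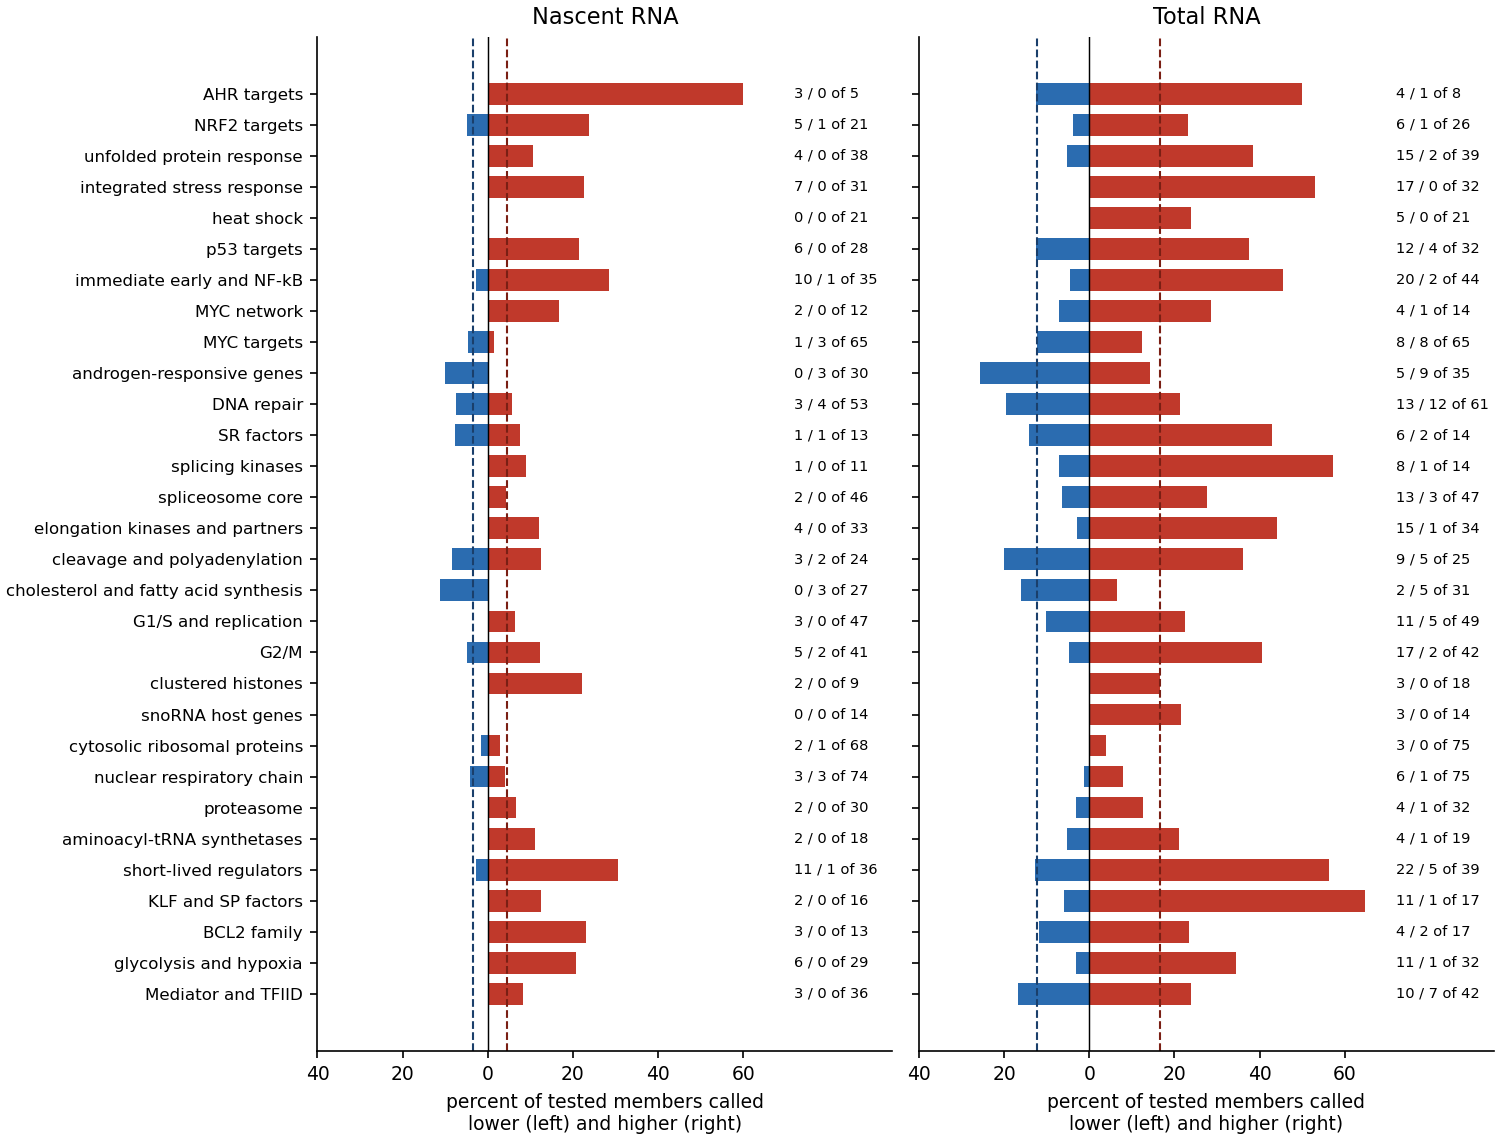
Percent of the tested members of each gene list called higher (right, red) or lower (left, blue) in the combination than in control, in nascent RNA and in total RNA, with the counts up and down of the number tested at the right of each panel. Dashed lines mark the percent of all tested genes called, 4.61% up and 3.51% down in nascent RNA and 16.6% and 12.4% in total RNA.

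Among androgen-responsive genes none of 30 tested members rose and 3 fell in nascent RNA (median log2 fold change -0.14), and 5 rose and 9 fell of 35 in total RNA. PMEPA1, a negative regulator of TGF-β signaling, moved from 286 and 315 T>C CPM to 109 and 139 (log2 fold change -1.28, adjusted p = 1.2e-05). SLC45A3, the prostate antigen prostein, moved from 179 and 144 to 52.96 and 75.2 (log2 fold change -1.34, adjusted p = 0.00015). In both genes the combination libraries lay below both control libraries, as for 2465 of all 9946 tested genes. PMEPA1 and SLC45A3 were low with Endovion alone (134 and 135, and 60.9 and 55.4) and at 296 and 201, and 205 and 130.2, with THZ531. TSC22D3 had a log2 fold change of -1.21 that did not pass (adjusted p = 0.087). Of the lineage factors, HOXB13 fell from 52.4 and 53.4 to 15.97 and 20.5 (log2 fold change -1.54, adjusted p = 0.005), a call lost without combination replicate 1 (adjusted p = 0.108). FOXA1 and ETV1 had log2 fold changes of 0.03 and -0.15 (adjusted p = 0.96 and 0.89), and ERG was not among the tested genes.

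Of 53 tested DNA repair genes 3 rose (5.66%) and 4 fell (7.55%, median log2 fold change -0.18), against 4.61% and 3.51% of all tested genes. Of 61 in total RNA 13 rose (21.3%) and 12 fell (19.7%), against 16.6% and 12.4%. FANCF, a subunit of the Fanconi anemia core complex and a gene without introns, moved from 82.4 and 63.7 T>C CPM to 33.6 and 6.83 (log2 fold change -1.81, adjusted p = 0.0011). FANCF was at 10.98 and 21.2 with THZ531 and at 57.1 and 64.9 with Endovion. BRIP1, a helicase that partners BRCA1, and XRCC2, a protein of homologous recombination, fell by 1.25 and 1.02 on the log2 scale (adjusted p = 0.0054 and 0.013). PARP1, which detects strand breaks, rose by 0.78 (adjusted p = 0.004). Each of those 4 calls was lost when a library was left out. For FANCF this was combination replicate 2 (adjusted p = 0.0958), for BRIP1 combination replicate 1 (0.210), for PARP1 control replicate 2 (0.0807), and for XRCC2 combination replicate 1 (0.173), control replicate 1 (0.0527) or control replicate 2 (0.0593).

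Cholesterol and fatty acid synthesis had no member up and 3 of 27 down (11.1%, median log2 fold change -0.10). HMGCS1, EBP and MSMO1, enzymes of the sterol pathway, fell by 0.61, 0.51 and 0.68 on the log2 scale (adjusted p = 0.019, 0.028 and 0.045), and MVK had a log2 fold change of -0.94 (adjusted p = 0.086). HMGCS1 was at 335 and 269 T>C CPM in control, at 213 and 184 in the combination, at 189 and 193 with Endovion and at 355 and 336 with THZ531. All 3 calls were lost without combination replicate 1 (adjusted p = 0.0583, 0.157 and 0.0726) or combination replicate 2 (0.180, 0.131 and 0.320). The calls on HMGCS1 and MSMO1 were also lost without control replicate 1 (0.216 and 0.141), and those on EBP and MSMO1 without control replicate 2 (0.253 and 0.118).

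MYC and its partners were examined because the study follows MYC. MYC moved from 84.3 and 66.1 T>C CPM in control to 110.1 and 168 in the combination (log2 fold change 0.87 ± 0.23, adjusted p = 0.0088). THZ531 alone gave 185 and 253 and Endovion alone 116.5 and 140.3, so the combination lay with Endovion and below THZ531. The call on MYC was lost without combination replicate 2 (adjusted p = 0.279) or control replicate 2 (0.131). MYC also rose in total RNA, by 1.60 (adjusted p = 0.029), a call that was likewise lost without combination replicate 2 (0.119) or control replicate 2 (0.139). MXD1, an antagonist of MYC, rose by 1.76 (adjusted p = 0.011), a call lost without combination replicate 1 (0.476) or control replicate 2 (0.0759), and MNT and MXI1 had log2 fold changes of 1.38 and 0.46 (adjusted p = 0.11 and 0.13). Of 12 members of the network 2 rose (16.7%) and none fell. Of 65 tested MYC targets 1 rose (1.54%) and 3 fell (4.62%), against 4.61% and 3.51% of all tested genes. Those that fell were SRSF7, a splicing factor, NOP16, a nucleolar protein, and PUS1, a pseudouridine synthase, by 0.83, 0.80 and 1.40 on the log2 scale (adjusted p = 0.00019, 0.0002 and 0.031), and PCNA, the replication clamp, rose by 0.79 (adjusted p = 0.0028). The call on PUS1 was lost without any of the 4 libraries (adjusted p = 0.132 and 0.187 for the combination replicates, 0.153 and 0.0558 for control), and that on PCNA without control replicate 2 (0.0662).

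SRPK1, SRPK2, CDK12, CDK13 and LRRC8A, which encode known targets of the compounds or close relatives of them, did not pass the test in nascent RNA. SRPK1 was at 56.9 and 66.1 T>C CPM in control and at 79.0 and 86.9 in the combination (log2 fold change 0.43, adjusted p = 0.35). In total RNA SRPK1 rose by 0.74 on the log2 scale (adjusted p = 0.011), a call lost without combination replicate 2 (0.0898) or control replicate 2 (0.116). SRPK2, CDK12 and CDK13 had log2 fold changes of 0.51, 0.69 and 0.07 (adjusted p = 0.63, 0.14 and 0.94). LRRC8A, a subunit of the volume-regulated anion channel, had -0.20 (adjusted p = 0.57). SRPK3 and ABCG2 were not among the tested genes. Of the substrates of SRPK1, the SR factors, 1 of 13 rose and 1 fell in nascent RNA (7.69% each). In total RNA 6 of 14 rose (42.9%) and 2 fell (14.3%), where 16.6% of all genes rose and 12.4% fell. SRSF4 rose by 0.66 (adjusted p = 0.049), a call lost without any of the 4 libraries (adjusted p = 0.258 and 0.110 for the combination replicates, 0.063 and 0.256 for control). SRSF7 fell from 684 and 653 to 328 and 426, and was at 598 and 732 with THZ531 and at 375 and 439 with Endovion. SRSF3 and TRA2B had -0.44 and 0.50 (adjusted p = 0.061 and 0.08), and SRSF1, whose intervals overlap another gene's, -0.12 (adjusted p = 0.74). In the kinases that phosphorylate splicing factors, 8 of 14 rose (57.1%) and 1 fell (7.14%) in total RNA. In nascent RNA 1 of 11 rose (9.09%), DYRK2 by 1.10 (adjusted p = 0.0052), a call lost without combination replicate 2 (0.123). HIPK3, HIPK2 and CLK3 had 1.06, -0.48 and 1.17 (adjusted p = 0.078, 0.098 and 0.1).

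The list of elongation kinases and their partners, set up around the process CDK12 serves, had 4 of 33 members up (12.1%) and none down (median log2 fold change 0.36). The 4 include MNAT1, described below, which belongs to the kinase of TFIIH. In total RNA 15 were up (44.1%) and 1 down (2.94%) of 34. CCNT2, a cyclin of the elongation kinase P-TEFb, moved from 10.9 and 15.9 T>C CPM to 52.96 and 42.9 (log2 fold change 1.85, adjusted p = 0.0029). AFF4, the scaffold of the super elongation complex, and RTF1, of the PAF complex, rose by 0.95 and 0.82 (adjusted p = 0.01 and 0.022). The calls on CCNT2, AFF4 and RTF1 were lost without combination replicate 1 (adjusted p = 0.0604, 0.130 and 0.183), those on AFF4 and RTF1 without control replicate 2 (0.113 and 0.277), and that on RTF1 without combination replicate 2 (0.0577). MNAT1, a subunit of the CDK-activating kinase of TFIIH, had the smallest p of all genes named by the rule. It had 5 and 6 T>C reads in control and 136 and 115 in the combination, 3.19 and 4.78 against 114 and 112 CPM (log2 fold change 4.82 ± 0.38, adjusted p = 1.1e-14). MNAT1 was at 103 and 159 CPM with THZ531 alone, at 101 and 135 with Endovion alone and at 103 and 113 with SRPIN340, so that the control libraries stood apart from every treated group. Its total RNA had a log2 fold change of 2.02 (adjusted p = 0.076).

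Of 46 core spliceosome genes 2 rose (4.35%, against 4.61% of all tested genes) and none fell. SNRPF, a protein of the Sm ring, rose by 1.33 and LUC7L2, a U1 associated factor whose intervals overlap another gene's, by 1.31 on the log2 scale (adjusted p = 1.1e-06 and 9.6e-05). SF3A1 and U2AF2 had 0.50 and -0.41 (adjusted p = 0.052 and 0.065). Among 24 cleavage and polyadenylation factors 3 rose (12.5%) and 2 fell (8.33%, median log2 fold change 0.42). NUDT21, a subunit of cleavage factor I that steers the choice of polyadenylation site, moved from 62.0 and 52.6 T>C CPM to 208 and 186 (log2 fold change 1.78, adjusted p = 6.5e-08), and PABPC1, the cytoplasmic poly(A) binding protein, from 251 and 189.5 to 466 and 496 (log2 fold change 1.12, adjusted p = 1.6e-06). FIP1L1 rose by 0.90 and CPSF4 fell by 0.76 on the log2 scale (adjusted p = 0.039 and 0.0069). The call on CPSF4 was lost without combination replicate 1 (adjusted p = 0.108), and that on FIP1L1 without any of the 4 libraries (0.197 and 0.114 for the combination replicates, 0.104 and 0.160 for control). Mediator and TFIID had 3 of 36 members up (8.33%) and none down. TAF1, MED28 and MED26 rose by 1.63, 1.10 and 1.58 (adjusted p = 0.0028, 0.0061 and 0.021), and MED31 had -1.04 (adjusted p = 0.056). The call on TAF1 was lost without combination replicate 2 (0.0764), those on MED28 and MED26 without combination replicate 1 (0.116 and 0.629) or control replicate 2 (0.0585 and 0.0874), and that on MED26 without control replicate 1 (0.0997). KLF and SP factors had 2 of 16 up (12.5%), SP1 by 1.40 and KLF10 by 1.06 (adjusted p = 0.02 and 0.021). In total RNA 11 of 17 were up (64.7%). KLF16 and KLF5 had nascent log2 fold changes of 0.77 and 0.75 (adjusted p = 0.068 and 0.1). The call on SP1 was lost without combination replicate 2 (0.264) or control replicate 2 (0.152), and that on KLF10 without any of the 4 libraries (0.121 and 0.0898 for the combination replicates, 0.100 and 0.0757 for control).

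In the G2/M list 5 of 41 members rose (12.2%) and 2 fell (4.88%), against 4.61% and 3.51% of all tested genes. PRC1, a spindle midzone protein whose intervals overlap another gene's, rose by 2.18 on the log2 scale (adjusted p = 2.6e-06). CCNB1, the mitotic cyclin, moved from 269 and 362 T>C CPM to 134 and 132 (log2 fold change -1.25, adjusted p = 3.7e-06). FAM83D, a spindle protein, rose by 1.16 and AURKB, a kinase of the chromosomal passenger complex, fell by 0.77 on the log2 scale (adjusted p = 0.0016 and 0.0036). The calls on FAM83D and AURKB were lost without combination replicate 1 (adjusted p = 0.058 and 0.0519), and that on AURKB without control replicate 2 (0.329). In G1/S 3 of 47 rose (6.38%) and none fell. Those that rose were SLBP, the histone mRNA binding protein, ORC6, an origin factor, and PCNA, and POLD3 had 0.87 (adjusted p = 0.056). SLBP and ORC6 rose by 1.04 and 1.62 (adjusted p = 0.00046 and 0.0035). The calls on SLBP and ORC6 were lost without control replicate 2 (adjusted p = 0.0585 and 0.108), and that on ORC6 without combination replicate 2 (0.0659). Of 9 tested histone genes 2 rose (22.2%), among them H2BC15 by 2.34 (adjusted p = 0.0067), a call lost without combination replicate 1 (0.247) or control replicate 2 (0.055).

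Calls in nascent RNA in large groups of housekeeping genes were near the share of all genes, 4.61% up and 3.51% down. In total RNA, where 16.6% rose and 12.4% fell, 3 of 75 cytosolic ribosomal protein genes rose (4.0%) and none fell. There 6 of 75 respiratory chain genes rose (8.0%) and 1 fell (1.33%). Of 32 proteasome genes 4 rose (12.5%) and 1 fell, and of 14 snoRNA hosts 3 rose (21.4%) and none fell. In the cytosolic ribosomal proteins 2 of 68 rose (2.94%), RPL9 and RPL14, by 1.23 and 0.84, and RPL35A fell by 0.46 on the log2 scale (adjusted p = 0.0025, 0.015 and 0.026). Of 74 nuclear genes of the respiratory chain 3 rose and 3 fell (4.05% each). NDUFB3 of complex I moved from 11.5 and 4.78 T>C CPM to 73.1 and 52.7 (log2 fold change 2.90, adjusted p = 6.1e-05) and SDHD of complex II rose by 2.70, while ATP5ME and NDUFA2 fell by 0.60 and 0.56 on the log2 scale (adjusted p = 0.0028, 0.0077 and 0.009). The proteasome had 2 of 30 members up (6.67%) and none down, PSMD11 and PSMC4, by 0.58 and 0.92 (adjusted p = 0.03 and 0.049). None of the 14 tested hosts of small nucleolar RNAs was called in edgeR or in DESeq2, with 1 higher and 1 lower at an unadjusted p under 0.05 in edgeR, and the member with the smallest p was ZFAS1 (0.67, adjusted p = 0.12). Of the calls named here NDUFB3 kept its own without each of the 4 libraries. The calls on RPL14, RPL35A, ATP5ME, NDUFA2, PSMD11 and PSMC4 were lost without combination replicate 1 (adjusted p = 0.0685, 0.161, 0.181, 0.101, 0.394 and 0.392). Those on RPL9, RPL14, RPL35A, SDHD, NDUFA2 and PSMC4 were lost without combination replicate 2 (0.158, 0.100, 0.114, 0.0923, 0.0557 and 0.0538). Those on RPL14, RPL35A, SDHD, ATP5ME, NDUFA2 and PSMD11 were lost without control replicate 2 (0.204, 0.114, 0.0757, 0.117, 0.110 and 0.452), and those on RPL35A and PSMC4 without control replicate 1 (0.0603 and 0.341). Of the mitochondrial genome the ribosomal RNAs MT-RNR1 and MT-RNR2 were tested, with log2 fold changes of 0.24 and 0.10 (adjusted p = 0.33 and 0.72).

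Outside the lists, the naming rule, which takes the smallest p among genes that moved by 1 or more on the log2 scale with no overlap of the groups, gave 15 genes that rose and 15 that fell. ARL6IP1, a membrane-shaping protein of the endoplasmic reticulum, moved from 101 and 74.1 T>C CPM to 464 and 333 (log2 fold change 2.18, adjusted p = 1.1e-10). SLC25A5, a mitochondrial carrier of ADP and ATP, moved from 307 and 212 to 652 and 683 (log2 fold change 1.36, adjusted p = 4.2e-08). NFYA, a subunit of the factor that binds CCAAT boxes, moved from 10.2 and 5.57 to 78.2 and 67.3 (log2 fold change 3.16, adjusted p = 2.4e-07). TM2D3, SDCBP (syntenin), PIP4K2C, MRPL16, AAMP, the homeobox factor MNX1 and HYCC2 rose by 1.26 to 3.39 on the log2 scale (adjusted p at most 1.1e-06). With PNRC1, MNAT1, CYP1A1, SLC7A11 and NUDT21, these 15 genes kept their calls without each of the 4 libraries. A choice by the smallest p in the same libraries favours this.

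Among the genes that fell by that rule, SLC29A2, an equilibrative nucleoside transporter, moved from 229 and 326 T>C CPM to 86.6 and 40.02 (log2 fold change -2.11 ± 0.24, adjusted p = 8.5e-09). C1orf116, a gene regulated by androgen, moved from 109 and 147 to 9.25 and 17.6 (log2 fold change -3.27 ± 0.37, adjusted p = 1e-08). HPS6, a subunit of a lysosome biogenesis complex encoded without introns, moved from 110.5 and 77.2 to 7.57 and 18.5 (log2 fold change -2.87, adjusted p = 3e-07). SSH1, a phosphatase that activates cofilin, moved from 197 and 221 to 79.0 and 59.5 (log2 fold change -1.58, adjusted p = 3.9e-07). HOMEZ, a homeobox gene, had 62 and 38 T>C reads in control and 0 and 1 in the combination (adjusted p = 7.3e-07). Its ratio of control over combination was 78.7, with an exact 95% interval for counting error of 13.8 to 3139. KBTBD7, APLN, CREB3L4, KDF1, IRX3, PIP4P1 and TBC1D24 fell by 1.23 to 1.54 on the log2 scale (adjusted p at most 2.5e-06). HELLPAR, PAGR1 and ENSG00000280893 fell by 2.62, 1.69 and 1.63, but their intervals overlap those of other genes and their reads may be shared. All 15 kept their calls without each of the 4 libraries, which the same choice by the smallest p favours.

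In total RNA 14689 genes were tested, and 2438 rose (16.6%) and 1822 fell (12.4%) in the quasi-likelihood test. Of 9946 genes tested in both, 402 rose and 263 fell in nascent and in total RNA, and no gene was called in opposite directions. Nascent RNA alone was called for 57 genes up and 86 down, total RNA alone for 1811 up and 1115 down. Both measures come from the same libraries, and T>C reads are a part of all reads. Leaving out control replicate 2 lowered the calls in total RNA to 1024 up and 1196 down. Without combination replicate 1 they were 1212 up and 1207 down, and without combination replicate 2 there were 1555 up. By p, the leading genes among those that rose were CYP1A1 and SLC7A11, followed by TUBGCP3, TUFT1, SERTAD1, RBM15, NDEL1 and BCL2L11. TUBGCP3, a subunit of the γ-tubulin complex, was at 2.03 and 1.51 CPM in control and at 16.9 and 12.7 in the combination (log2 fold change 3.05, adjusted p = 7.5e-06). SERTAD1, a cofactor of E2F, moved from 11.2 and 10.3 to 60.7 and 36.2 (log2 fold change 2.17, adjusted p = 1.2e-05). BCL2L11 moved from 14.04 and 11.1 to 43.1 and 44.5 (log2 fold change 1.79, adjusted p = 1.4e-05), and TUFT1, RBM15 and NDEL1 rose by 1.89, 1.35 and 1.18 in total RNA.

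The genes with the smallest p that fell in total RNA were PAGR1 and the overlapping ENSG00000280893, JMJD4, SLC29A2, SRRM4, PIGM, HELLPAR and FADD. JMJD4, a protein hydroxylase, was at 17.9 and 19.5 CPM in control and at 2.41 and 2.98 in the combination (log2 fold change -2.80, adjusted p = 5e-06). SRRM4, a splicing regulator of neural exons, moved from 133 and 152 to 44.9 and 48.6 (log2 fold change -1.61, adjusted p = 5e-06). FADD, the adaptor of death receptors, moved from 29.4 and 25.5 to 7.15 and 7.79 (log2 fold change -1.88, adjusted p = 7.5e-06), and PIGM, an enzyme of GPI anchor synthesis, from 246 and 259 to 99.8 and 90.6 (log2 fold change -1.41). The naming rule required that the groups not overlap. Over the 14689 genes tested in total RNA, both combination libraries lay above both control libraries for 4869 and below them for 4623. These total RNA calls held without each of the 4 libraries, which a choice by the smallest p in the same libraries favours.

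**Figure D3:**
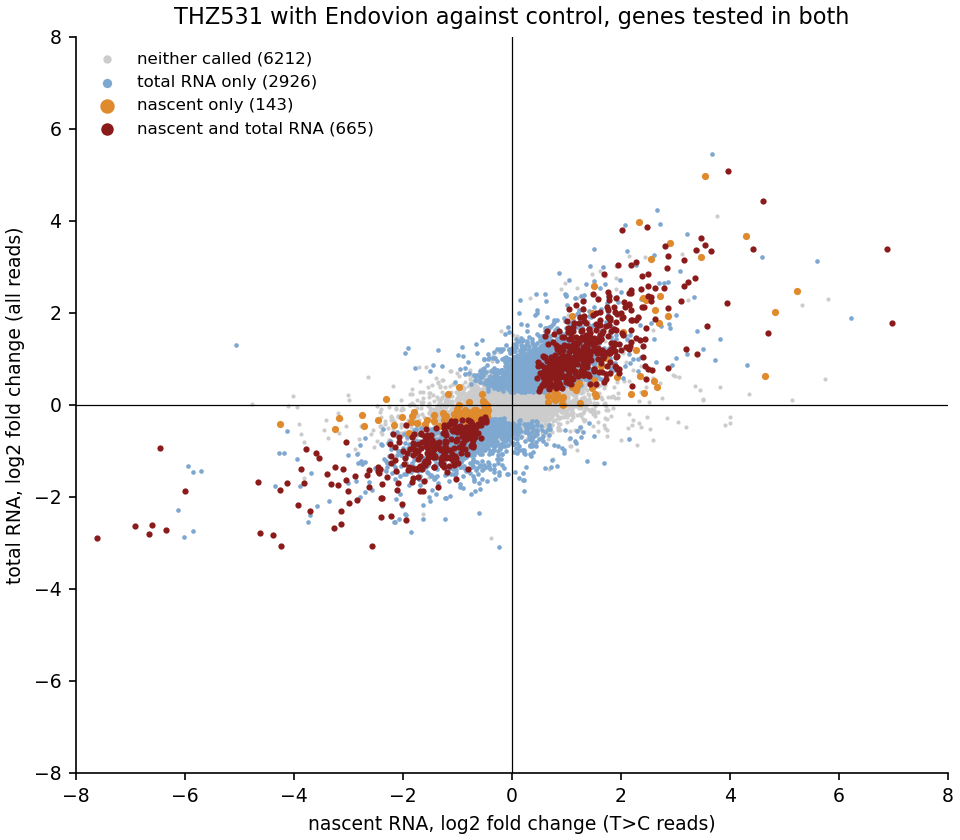
Log2 fold change of the combination against control in nascent RNA (T>C reads, x axis) and in total RNA (all reads, y axis) for the 9946 genes tested in both, a point for each gene, coloured by where it was called at an adjusted p under 0.05. The called genes lie in the lower left and the upper right, 665 of them called in both measures and none in opposite directions.

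The share of reads with T>C was lower in the combination than in control. It was 5.70% and 5.63% in the control libraries and 5.04% and 5.24% in the combination, a difference of -0.524 percentage points between the means (5.66% ± 0.0435 and 5.14% ± 0.136, SD, n = 2). The groups did not overlap, and the exact two-sided permutation test of 2 against 2 libraries gave p = 0.333, the smallest it allows. The libraries of the single compounds ranged from 5.06% to 5.63%. No library of unlabelled cells was analysed here, so the share that sequencing errors give is unknown.

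Gene by gene, the T>C share rose for 8 genes (0.0804%) and fell for 72 (0.724%) of 9946, with a median log2 change of the odds of -0.16. Of the 72 genes with a lower share, 39 rose in total RNA and 32 of them had no call in nascent RNA, while 14 fell in nascent RNA. Of all genes tested in each measure, 16.6% rose in total RNA and 3.51% fell in nascent RNA. A lower share means fewer T>C reads or more other reads in the same libraries, so the choice of these genes favours such calls. MRPL13, a mitochondrial ribosomal protein, had shares of 19.4% and 27.7% in control and of 5.85% and 6.51% in the combination (log2 change of the odds -2.20, adjusted p = 0.0023). Its T>C reads were 114 and 110 in control and 97 in each combination library, while all reads went from 589 and 397 to 1658 and 1489. The share fell from 9.87% and 13.3% to 4.88% and 5.56% for SRSF1, from 21.8% and 28.1% to 12.2% or less for the cancer-testis antigen MAGEA4, from 10.8% and 13.8% to 6.16% and 6.05% for the cargo receptor TMED2, and from 29.3% and 34.8% to 15.4% and 16.5% for WDR72 (each adjusted p = 0.0045). In these 5 genes nascent RNA had log2 fold changes of -0.31 to 0.14 and no call, and total RNA rose by 0.62 to 1.996. The total RNA call held without each library for SRSF1. It was lost without combination replicates 1 and 2 and control replicate 2 for MRPL13 (adjusted p = 0.130, 0.130 and 0.205), MAGEA4 (0.136, 0.138 and 0.222), TMED2 (0.116, 0.0595 and 0.0523) and WDR72 (0.184, 0.151 and 0.293), and without control replicate 1 for MRPL13 (0.114) and MAGEA4 (0.0967). SSH1, CCNB1 and NOP16, which fell in nascent RNA, also had a lower share (log2 change of the odds -1.27, -0.94 and -0.82). The share test keeps the lower share of the whole library in each gene's change. With each read class scaled on its own, the share calls on SSH1, CCNB1 and NOP16 were lost. Those on the 5 genes above were kept, and 11 genes had a higher and 31 a lower share. Leaving out combination replicate 1 or 2 or control replicate 2 ended each call on a share named here (adjusted p up to 0.318), and the number of genes with a lower share ranged from 0 to 89.

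Genes with a higher share included OAZ1, the antizyme of ornithine decarboxylase, HEXIM1, the inhibitor of P-TEFb, the small nuclear RNA gene RNVU1-25, SCARNA9, whose intervals overlap another gene's, and, outside the naming rule for shares, MNAT1, SMPD1 and H4C3. OAZ1 had 6.45% and 5.12% against 9.38% and 10.1% (log2 change of the odds 0.82, adjusted p = 0.0045). HEXIM1 had 7.69% and 2.07% against 12.4% and 11.8% (1.48, adjusted p = 0.026). HEXIM1 stood at 75.4 and 21.5 T>C CPM in control, at 246 and 249.9 in the combination, at 269 and 504 with THZ531 and at 123 and 139 with Endovion. Its nascent change did not pass in the main edgeR fit (log2 fold change 2.31, adjusted p = 0.087). It passed with DESeq2 (adjusted p = 0.0081), in the fit on the 4 libraries (0.0019), without a filter (0.0033) and with the plain sum (0.028). It did not pass with RLE scaling (0.090), a mean of at least 50 reads (0.054), the replicate block (0.14) or scaling by all reads (0.078). RNVU1-25, a variant U1 gene with near-identical copies whose reads may be shared, had 6.71% and 16.6% against 40.7% and 37.2%. These calls too were lost without combination replicate 1 (adjusted p = 0.132 for OAZ1, 0.319 for HEXIM1, 0.336 for RNVU1-25), combination replicate 2 or control replicate 2.

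**Figure D4:**
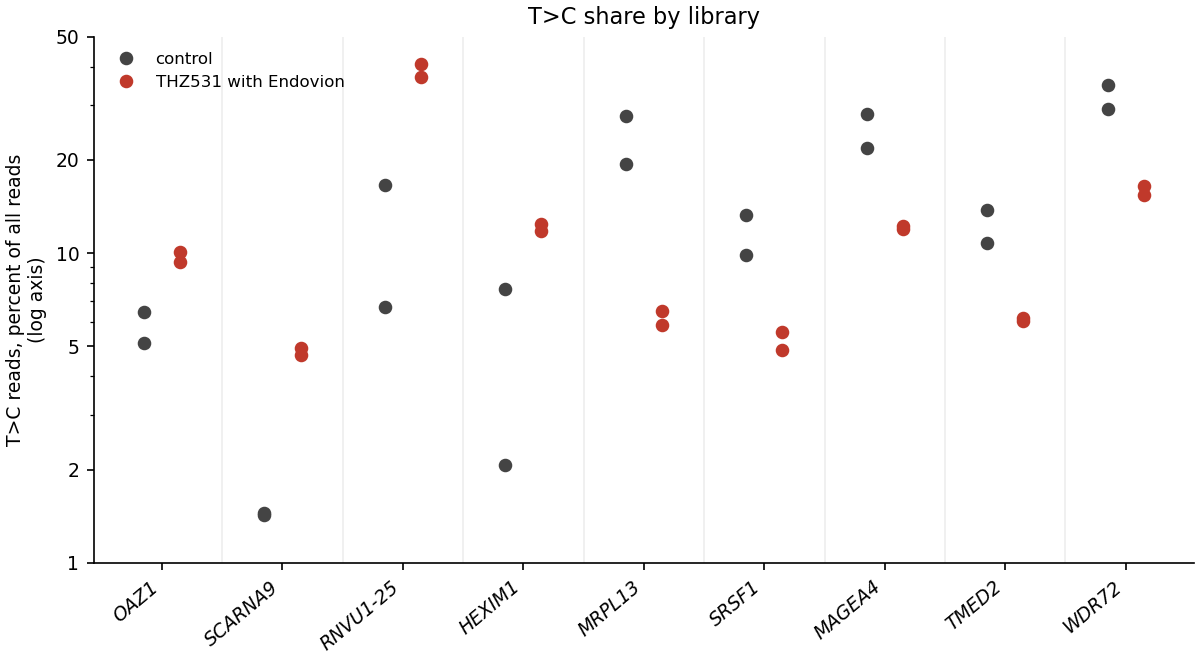
T>C reads as a percent of all reads of a gene (log axis) in each control and combination library for genes with a higher share (left) and the 5 with a lower share named by the rule (right), a point for each library. SCARNA9 is at 1.45% and 1.43% in control and 4.96% and 4.70% in the combination, and MRPL13 at 19.4% and 27.7% against 5.85% and 6.51%.

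Against THZ531 alone, 14 genes were higher (0.141%) and 18 lower (0.181%) in the combination in nascent RNA. CYP1A1 was higher by 3.34 ± 0.39 (adjusted p = 1e-07) and CYP1B1 by 2.10 ± 0.30 on the log2 scale (adjusted p = 9.4e-06), and these calls held without each library. SLC7A11 and HERPUD1 were higher by 0.84 and 1.10 (adjusted p = 0.013 and 0.033). SLC45A3, PMEPA1, NOP16, SRSF7, HMGCS1 and BTG1 were lower, by -1.41, -1.02, -0.82, -0.82, -0.80 and -0.70 (adjusted p = 0.001 to 0.015). Leaving out combination replicate 1 ended the calls on SLC7A11, HERPUD1 and these 6 genes (adjusted p = 0.136 to 0.672). Leaving out a THZ531 library ended them too, replicate 1 for SLC7A11, HERPUD1, SLC45A3, PMEPA1, NOP16, HMGCS1 and BTG1 (0.0699 to 0.474) and replicate 2 for SLC7A11, HERPUD1, SRSF7, HMGCS1 and BTG1 (0.0718 to 0.384), and combination replicate 2 did so for SLC7A11 and HMGCS1 (0.0936 and 0.209). With the plain sum of intervals no gene was called in either direction in edgeR, with 376 up and 359 down at an unadjusted p under 0.05.

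Against Endovion alone, 41 genes were higher (0.412%) and 79 lower (0.794%) in the combination. HPS6 was lower by -2.79, HELLPAR by -2.40 and SSH1 by -1.39 (adjusted p = 5.9e-06, 1e-05 and 4.7e-05), and these 3 calls held without each library. C1orf116, FANCF and SLC29A2 were lower by -2.31, -1.55 and -0.97 (adjusted p = 0.00023, 0.028 and 0.029). RBM15, an adaptor of the m6A writer, ADM, ARL6IP1, TM2D3 and IER5 were higher by 1.88, 2.36, 0.84, 0.79 and 0.85 (adjusted p = 0.0077, 0.01, 0.016, 0.016 and 0.016). Each of these 8 calls was lost without at least 1 library of the combination or of Endovion. Combination replicate 1 ended all of them (adjusted p = 0.0651 to 0.506) but those on FANCF and SLC29A2, which combination replicate 2 ended (0.485 and 0.524). Endovion replicate 1 ended those on C1orf116, FANCF, SLC29A2, RBM15, ARL6IP1, TM2D3 and IER5 (0.0712 to 0.336), and Endovion replicate 2 those on FANCF, SLC29A2, RBM15, ADM, ARL6IP1, TM2D3 and IER5 (0.0665 to 0.322). Of the genes that fell against control, 69 of 349 were also lower than with Endovion alone and 13 lower than with THZ531 alone. Of those that rose, 28 of 459 and 8 were higher. The same combination libraries chose these genes and enter these contrasts, so the choice favours such overlap.

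Whether the change in the combination differed from the sum of the log2 changes of both compounds was tested as an interaction over all 4 groups. It was above the sum for 2 genes (0.0201%) and below it for 28 (0.282%). The control libraries are 1 of the 4 groups and enter the interaction and the change against control with opposite signs. Low control levels therefore lower the interaction and raise the change against control. MNAT1 had the smallest p, with an interaction of -5.07 ± 0.46 (adjusted p = 7.4e-12), which held without each library. PNRC1, NUDT21, NFYA, SNRPF, MRPL16, SDCBP, NDUFB3 and PRC1 had interactions of -1.45, -1.43, -2.58, -1.25, -2.84, -2.08, -2.99 and -1.80 (adjusted p = 0.019 to 0.044). For MYC the log2 fold change was 0.87 in the combination, 1.53 with THZ531 and 0.76 with Endovion, and the interaction -1.42 ± 0.32 (adjusted p = 0.025). The calls other than that on MNAT1 were lost without THZ531 replicate 2 (adjusted p = 0.291 to 0.445) or control replicate 2 (0.210 to 0.375), combination replicate 1 (0.0955 to 0.261) or Endovion replicate 1 (0.0637 to 0.245). Apart from MYC they were also lost without combination replicate 2 (0.0599 to 0.218), and apart from NFYA without Endovion replicate 2 (0.0949 to 0.153). Of the 28 genes, 24 had risen in the combination against control, a count that the shared control libraries favour.

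Gene structure was described because CDK12 is known for long genes and SRPK1 for splicing. Of all tested protein-coding genes 4.65% rose and 3.51% fell in nascent RNA, and 18.2% rose and 12.4% fell in total RNA. Of 120 tested protein-coding genes with 1 exon, 4 rose (3.33%) and 17 fell (14.2%) in nascent RNA, with a median log2 fold change of -0.30. In total RNA 22 rose (10.7%) and 63 fell (30.7%) of 205 (median -0.42). Of 1643 genes spanning under 10 kb, 68 rose and 7.06% fell (median -0.17), of 3012 spanning 50 to 200 kb 140 rose and 69 fell (median 0.09), and of 687 spanning over 200 kb 18 rose and 8 fell (median 0.06). With merged exons under 1 kb none of 109 rose and 8 fell, and with merged exons over 15 kb 27 of 562 rose and 17 fell (median -0.03). Of 421 genes with more than 30 exons 13 rose (3.09%) and 12 fell (2.85%, median -0.05). The genomic span had a median of 17.5 kb in the genes that fell, 32.9 kb in those that rose and 35.1 kb in all tested protein-coding genes. In long non-coding RNAs 9 of 333 rose (2.70%) and 12 fell (3.60%) in nascent RNA, against 4.61% and 3.51% of all tested genes. In total RNA 57 of 1360 rose (4.19%) and 205 fell (15.1%, median -0.36), against 16.6% and 12.4% of all tested genes. These are counts over genes with no test between classes. The T>C share in control, a measure that goes with short-lived RNA and with the interval that was kept, had a median of 8.54% in the genes that fell and of 4.74% in those that rose, against 5.13% in all tested protein-coding genes, and its part in the class differences was not tested.

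**Figure D5:**
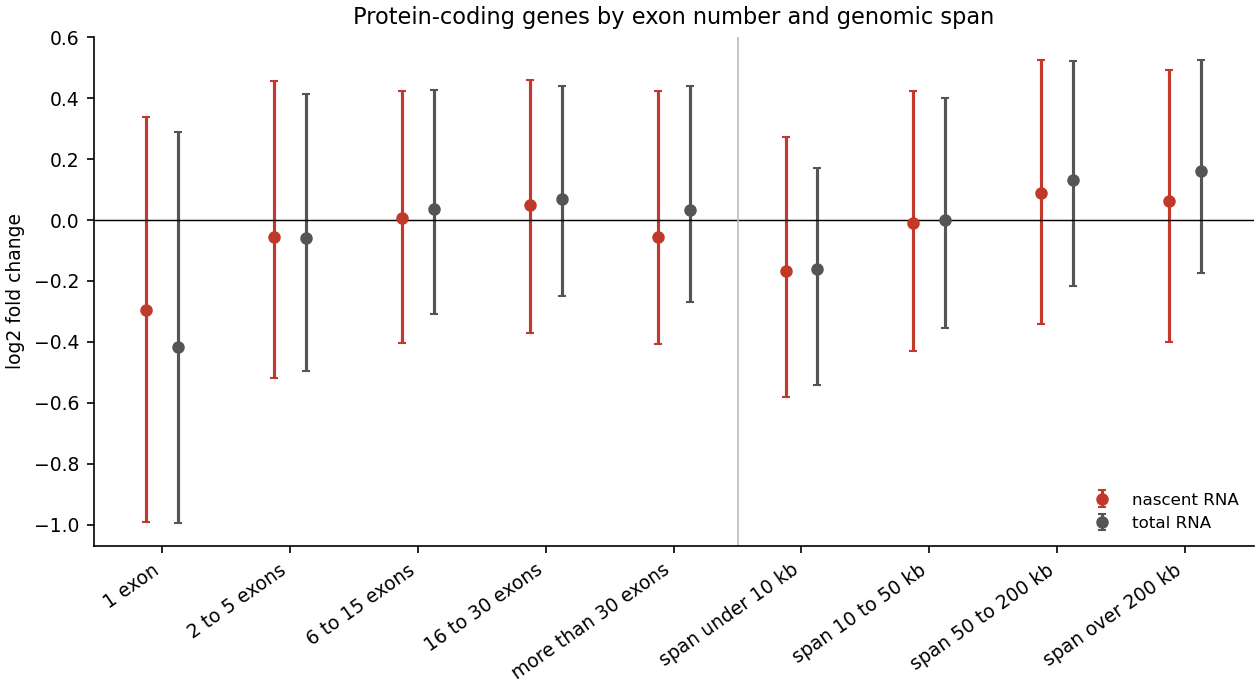
Median log2 fold change of the combination against control (points) with the 25th and 75th percentile of the genes (bars) in classes of protein-coding genes by number of exons (left) and genomic span (right), in nascent RNA and total RNA. Genes with 1 exon have medians of -0.30 and -0.42, and genes spanning 50 to 200 kb a nascent median of 0.09.

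Promoter windows were searched on both strands for letters bound by factors of the lists. A RefSeq window was found for 361 of the 459 genes that rose, 279 of the 349 that fell and 7900 of 9938 tested genes with a unique symbol. The core GCGTG was in 56.0%, 54.1% and 53.2% of these windows, and the CCAAT box in 42.9%, 39.4% and 38.1%. The E box CACGTG was in 10.8% of the windows of each group, the AP-1 site TGACTCA in 1.94%, 2.87% and 2.51%, the CRE TGACGTCA in 3.88%, 4.30% and 3.48%, the antioxidant element core TGACNNNGC in 15.8%, 16.8% and 15.3%, and TATAAA in 6.09%, 5.02% and 4.89%. No letters searched were in most windows of called genes and rare in the others, and a motif absent from a window says only that these letters are not in it. The CYP1A1 window holds a TATAAA and 2 CCAAT besides its GCGTG. The windows of CYP1B1 and SLC7A11 are not shown.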

How the data were processed

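SLAM-seq libraries of 10 samples in 5 groups of 2 were used. The authors made 3′ end libraries of alkylated RNA, with molecular identifiers, and counted conversions with SLAM-DUNK on hg38, and the submitters' processing notes name Bowtie2 2.3.4.1, SAMtools 1.6 and DESeq2 1.38.2. The deposited counts of reads and of T>C reads per 3′ end interval are not normalized. The SLAM-DUNK version, the conversions needed per read and whether identifiers were collapsed are not given in the sources used here. The labels give no batch or date.

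Of 104653 intervals, 92826 on primary chromosomes matched a transcript. Where intervals of a gene overlapped, only the best covered was used, leaving 57531 intervals of 31015 genes. A plain sum would count 48.8% of T>C reads again, and 3.53% of T>C reads matched no transcript. The intervals of 1568 genes overlap another gene's. No interval had multimapping reads, and the T content of 2000 of 2000 intervals drawn equalled that of the sequence.

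T>C reads and all reads per gene were analysed in R 4.3.3 by edgeR 4.0.16 (filterByExpr, TMM scaling, robust quasi-likelihood fit over the 10 libraries, 5 residual degrees of freedom), and called at a Benjamini-Hochberg adjusted p under 0.05 over all genes tested. The T>C share was tested as the interaction of group and read class with the library as a block. Levels are CPM of T>C reads (or of all reads) on genes after TMM scaling, set side by side for the same gene only, since these are 3′ end counts. The scripts were tested on simulated data. Alternatives were DESeq2 1.42.0, a fit on the 4 libraries, RLE scaling, other filters, the plain sum, the replicate block and leaving out each library. Depths, given in the text, set the precision, and intervals cover counting error only.

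Genes were named by rule: the 15 genes up and 15 down with the smallest p in nascent RNA (log2 fold change at least 1 in size, 20 T>C reads in the higher group, groups not overlapping), 8 up and 8 down in total RNA (100 reads), 5 up and 5 down in share (100 reads), the 4 members of each list with the smallest nascent p, and 15 genes of the study. Some of these are not reported here. Members and lists were chosen with earlier results of these data known. Replicate numbers did not pair the libraries: differences between replicates correlated at -0.0713 to 0.062 in nascent and -0.151 to 0.198 in total RNA over 10 pairs of groups. Replicates differed by more than sampling noise (chi-square per degree of freedom 4.90 in control and 3.95 in the combination for T>C reads).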

Additional observations from a re-analysis of the deposited data

How the results depend on the processing

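The calls depended on single libraries and on the handling of overlapping intervals. Nascent calls against control (459 up, 349 down) were 185 to 493 up and 134 to 332 down with a library left out and 169 and 103 with the plain sum of intervals. DESeq2 gave 356 and 269, and the replicate block 469 and 366. Total RNA calls (2438 and 1822) were 1024 to 2552 and 1196 to 1644 with a library left out, 2417 and 1916 with DESeq2, and 2398 and 1821 with the replicate block. Share calls (8 and 72) were 0 to 11 and 0 to 89 with a library left out, 15 and 182 with a mean of at least 50 reads, 13 and 121 without a filter, 10 and 83 with the replicate block, and 0 and 0 with the plain sum (268 and 907 at an unadjusted p under 0.05 in edgeR). Scaling each read class on its own gave 31 down, and leaving out genes over 20 percent T>C in control 45 down.

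Against THZ531 alone (14 and 18) there were 3 to 12 and 0 to 21 calls with a library left out, 0 and 0 with the plain sum, 9 up when scaled by all reads, and 19 and 24 with the replicate block. Against Endovion alone (41 and 79) there were 6 to 30 and 10 to 54 with a library left out, 1 and 0 with the plain sum (584 down at an unadjusted p under 0.05), 25 and 42 in the fit on both groups only, 26 up with a mean of at least 50 reads, 50 down with DESeq2, and 51 and 89 with the replicate block. The interaction (2 and 28) gave 0 to 8 and 1 to 97 with a library left out, 1 and 17 with DESeq2, 1 and 4 with a mean of at least 50 reads, 0 and 2 with the plain sum (340 up at an unadjusted p under 0.05), 64 down without a filter, and 2 and 33 with the replicate block. Alternatives to the interaction, and the scaling by all reads, were chosen after seeing the data.

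The difference in the overall share (-0.524 percentage points) was -0.620 to -0.427 with a library left out and -0.376 without genes over 20 percent T>C in control. The nascent median of genes with merged exons over 15 kb less that of the others (-0.02) was 0.073 by genomic span and -0.0053 to 0.037 with a library left out, and that of genes under 1 kb (-0.05) was -0.20 by span and -0.20 to -0.022 with a library left out.

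Of the 113 named genes called in nascent RNA none changed direction under any alternative run, 55 kept the call without each of the 4 libraries and 66 with the plain sum. The calls lost were 43 without combination replicate 1, 41 without control replicate 2, 25 without combination replicate 2 and 15 without control replicate 1. The cause was not tested, and a choice by the smallest p in the same libraries favours kept calls. Among genes without a call the sign of a log2 fold change near 0 turned when a library was left out. The range was -0.057 to 0.16 for MAGEA4, -0.11 to 0.14 for TMED2 (-0.032 when scaled by all reads), -0.34 to 0.043 for SLC7A5, -0.039 to 0.47 for MT-RNR1, -0.084 to 0.27 for MT-RNR2, -0.18 to 0.36 for CDK13, -0.17 to 0.22 for FOXA1 (-0.0048 when scaled by all reads) and -1.07 to 0.38 for ETV1.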
